A study of Mus musculus with 4 samples.

Results

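The genes described are 51 components of the messenger RNA (mRNA) decay and deadenylation machinery, out of 20716 genes in the table of ribosome footprints. They were taken by gene symbol from a list, and the RefSeq coding-sequence entries of each symbol were summed. The rule itself uses no measured value. Of the 51, 42 had a read in at least 1 library, and 38 reached the mean normalised footprint count of 25 over the 4 libraries that was asked of every compared gene (9670 genes in all). The other 13 are accounted for below.

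Ribosome footprints, the stretches of mRNA that a ribosome shields from RNase I, were sequenced in 2 mouse cultures, embryonic stem cells (ESCs) and the aggregates they form on differentiation, embryoid bodies (EBs). Each culture was made from wild-type (WT) cells and from cells labelled Mettl3-KO (KO), Mettl3 being the catalytic subunit of the enzyme that writes N6-methyladenosine (m6A) on mRNA. All 4 groups, WT ESCs, KO ESCs, WT EBs and KO EBs, carry the strain label C57BL/6, and each is 1 library, so no 2-library comparison has a replicate check or a p-value. ESCs of both genotypes were grown without serum in N2B27 medium with LIF and the inhibitors CHIR99021 and PD0325901, and EBs of both genotypes in medium with fetal bovine serum, kept for 8 to 21 days. Mettl3 itself had normalised counts of 563 (WT) and 298 (KO) in ESCs, and 429 (WT) and 327 (KO) in EBs, lower in both KO libraries but not absent. Which day an EB library comes from, the altered stretch of Mettl3 and the number of clones behind each line are not stated. A footprint count reflects both the amount of an mRNA and how densely it is translated, and the 2 cannot be told apart here. EBs are mixtures, in which fewer cells of a type and less RNA per cell cannot be told apart either.

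Cytoplasmic mRNAs usually start to decay when the poly(A) tail is shortened, by the PAN2-PAN3 complex and by the CCR4-NOT complex, which RNA-binding proteins and BTG/TOB adaptors bring to their targets. The shortened mRNA is then decapped by Dcp2 with its cofactors and eaten from the 5' end by Xrn1, or degraded from the 3' end by the RNA exosome with the SKI complex. Nonsense-mediated decay marks mRNAs with premature stop codons through the helicase Upf1. Methylated mRNAs are known to be brought to CCR4-NOT by the m6A reader Ythdf2.

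Whether a gene had reads went with its annotation. The table reports ambiguous reads apart, but how a read in several RefSeq entries was treated is not stated. The coding bases of each gene that lie in 1 entry only were therefore counted. Of 1205 genes with no such base, 0.249% had a read, against 28.71% of 1484 genes with under 10% of such bases, 64.52% of 1291 genes with 10 to under 100%, and 79.24% of 16354 genes with 100%. Among the decay genes these classes held 4 (0 with a read), 6 (2 with a read), 2 (1 with a read) and 39 (all 39 with a read). Cnot1, the scaffold of CCR4-NOT, Cnot7, one of its nucleases, the helicase Ddx6 and Lsm6 had no base of their own. For the helicase Upf1, the nuclease Pan2, the ubiquitin ligase Cnot4 and the exosome subunits Exosc1 and Exosc8 these single-entry bases numbered 33, 27, 213, 123 and 12. Those 9 genes are listed at 0 in all 4 libraries, and no footprint level is read from these values.

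The stretches that lie in a single entry are short for some genes. Coordinates are 1-based on GRCm38, and each sequence is the coding strand from 5' to 3', all in lower case because no base is marked.
Upf1, chr8:70339982-70340014, minus strand: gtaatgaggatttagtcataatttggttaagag
Pan2, chr10:128315487-128315513, plus strand: cttagcagcctgggtgccccctcacag
Cnot2, chr10:116549081-116549105, minus strand: tactgtgaggaaaggacacgactct
Lsm2, chr17:34985567-34985632, plus strand: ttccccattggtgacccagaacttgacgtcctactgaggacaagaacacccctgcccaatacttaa
The Upf1 and Pan2 stretches are about as long as 1 footprint and gave no read. All reads of Cnot2, a core subunit of CCR4-NOT, fell on the entry with the 25-base stretch printed and a 5-base one, although the gene has 1745 coding bases in the annotation. Neither stretch holds a whole 28-base window, so a read there would also cover shared bases. A 92-base single-entry stretch in another entry of Cnot2 holds 65 whole windows, and that entry has 0 reads in all 4 libraries. The reads of Cnot2 numbered 185 (WT) and 266 (KO) in ESCs, and 78 (WT) and 96 (KO) in EBs, and whether its values stand for the whole gene was not tested. All reads of Lsm2 fell on the entry with the 66-base stretch printed.

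**Figure D1:**
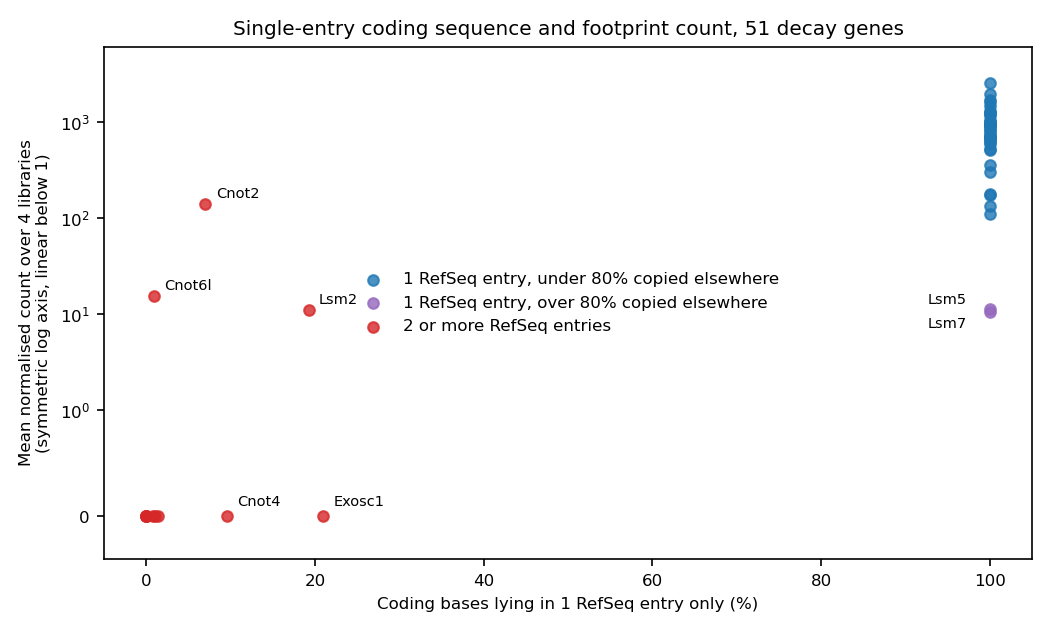
Each point is 1 of the 51 decay genes, with the percent of its coding bases that lie in 1 RefSeq entry only on the x axis and its mean normalised footprint count over the 4 libraries on the y axis, a symmetric log axis that is linear below 1. The 39 genes at 100% all have reads, and the 9 genes at 0 on the y axis all lie below 100%.

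The remaining 4 genes had reads but stayed under the filter. Cnot6l, a nuclease closely related to Cnot6, had normalised counts of 17.9, 18.7, 6.23 and 17.9 in WT ESCs, KO ESCs, WT EBs and KO EBs, with 15 single-entry bases. Lsm2 had 15.6, 16.0, 7.79 and 4.48 in the same order. Lsm5 had 13.2, 8.54, 4.68 and 14.9, and Lsm7 had 13.2, 11.7, 7.79 and 11.9. Lsm5 and Lsm7 have 1 entry each, but 88.8% and 100% of the 28-base windows of their coding sequences occur elsewhere in the genome, and a read of that length there has no unique place. Among the compared genes this share was highest for Btg1 (41.3%), Cnot8 (39.9%), Cnot3 (35.5%), Zfp36l1 (29.4%) and Lsm1 (15.5%), and under 10% for the rest.

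The coding starts of 3 genes are printed because these genes stood apart between the genotypes in EBs, as described below. Exosc3 was more than 1.5-fold but under 2-fold higher in KO, and Cnot6 and Parn were more than 2-fold lower. Exosc4, the highest gene there, is not printed. Each is the first 90 coding bases, 30 codons, on GRCm38, and capitals mark a G or C at the last position of a codon.
Exosc3, chr4:45320502-45320591, minus strand: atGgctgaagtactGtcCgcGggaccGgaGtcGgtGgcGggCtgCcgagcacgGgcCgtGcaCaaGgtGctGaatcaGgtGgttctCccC
Parn, chr16:13667541-13668029, minus strand, over 2 exons: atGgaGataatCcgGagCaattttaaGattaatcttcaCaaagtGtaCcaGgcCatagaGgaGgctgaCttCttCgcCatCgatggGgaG
Cnot6, chr11:49702563-49702652, minus strand: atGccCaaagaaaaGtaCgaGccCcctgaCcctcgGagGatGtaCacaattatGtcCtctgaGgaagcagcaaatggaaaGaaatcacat
The 30 codons hold 22 capitals in Exosc3, 20 in Parn and 15 in Cnot6. Over the whole coding sequence 57.45% of last codon positions are G or C in Exosc3, 54.56% in Parn and 42.68% in Cnot6. The median GC content of the coding sequence was 51.58% over the 38 compared decay genes and 53.24% over the 9597 compared genes with a coding model. The letters GGACT, a common core of m6A sites, occurred on the sense strand of 29 of the 38 coding sequences (76.32%), against 77.17% of those 9597.

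Levels were compared between genes per kilobase of coding sequence, for compared members with 1 entry. The highest mean over the 4 libraries was that of Lsm4, a ring subunit shared by the cytoplasmic and nuclear LSM complexes, with a normalised count of 2986 per kilobase. Exosc5 and Exosc4, subunits of the exosome ring, stood at 1806 and 1686 per kilobase, and Lsm3 at 1691. The order among Exosc5, Lsm3 and Exosc4 changed from library to library, since Exosc4 ran from 1092 in WT EBs to 2500 in KO EBs per kilobase. At the other end stood Dcp1b, a decapping cofactor, at 63.5 per kilobase, and the deadenylase Cnot6 at 107. The related nuclease Cnot8 stood at 771 per kilobase, near the Cnot10 and Cnot11 module of the same complex at 755 and 761. Dcp1a stood at 346 per kilobase, and Dcp2, the decapping enzyme itself, at 537.

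**Figure D2:**
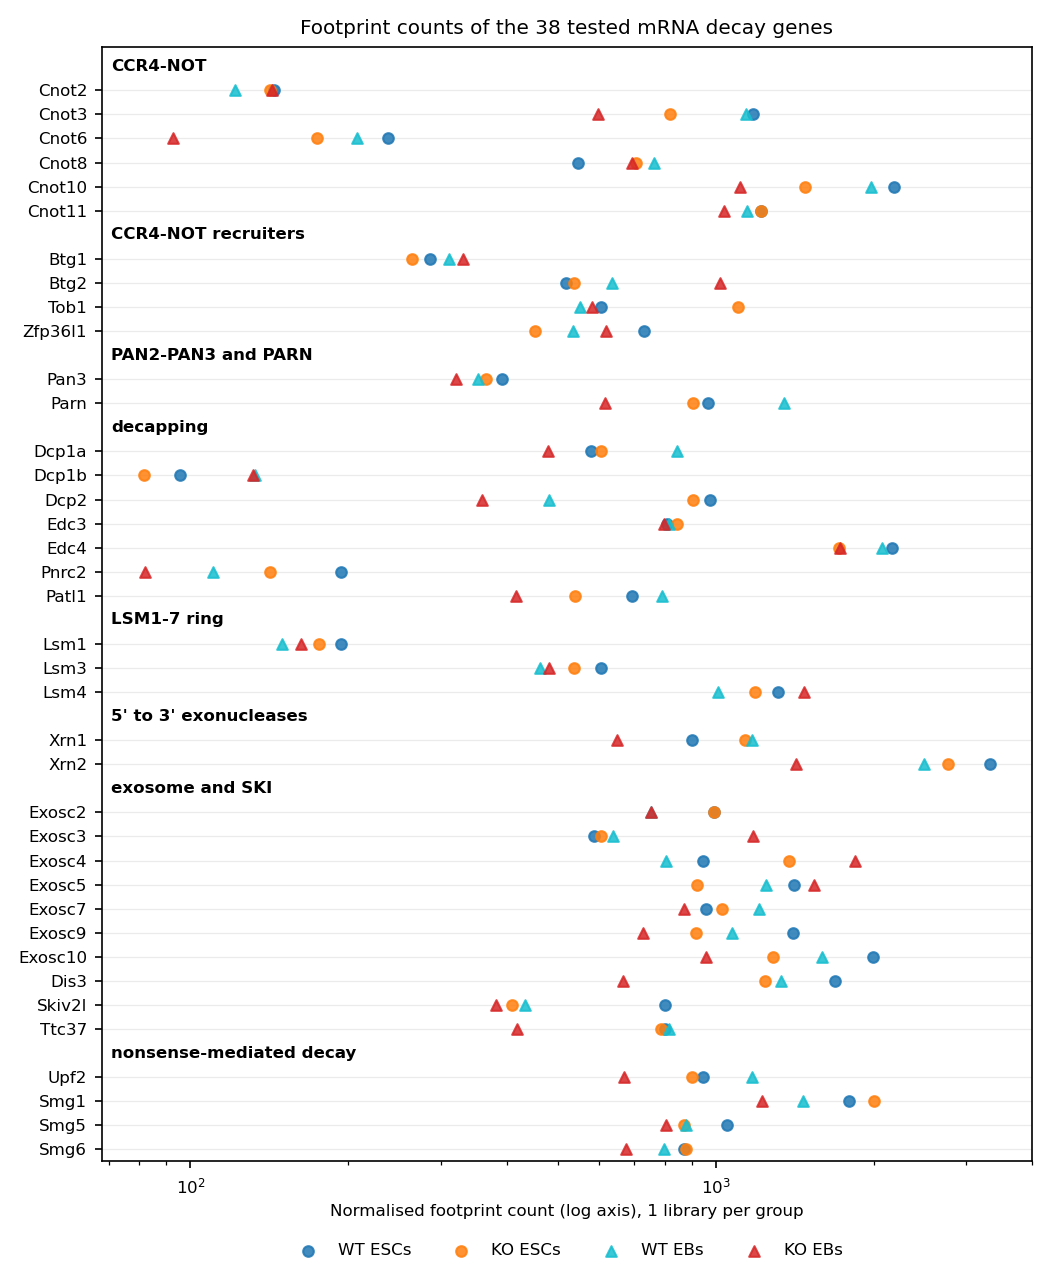
The normalised footprint count of each of the 38 compared decay genes, 1 point per library (WT ESCs, KO ESCs, WT EBs, KO EBs), on a log axis, with genes grouped by complex. Among them, Exosc4 is highest in KO EBs (1845), and Dcp2 is lower in both EB libraries (482 and 359.7) than in both ESC libraries (976 and 906).

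Few decay genes were far apart between KO and WT. In ESCs, 0 of 38 were at least 2-fold apart, where 15.0% of all compared genes were (10.6% higher and 4.42% lower in KO). At least 1.5-fold, 1 was higher and 5 were lower in KO ESCs, where 20.5% of all compared genes were higher, 13.4% lower and so 33.9% apart. In EBs, 3 of 38 were at least 2-fold apart, where 27.4% of all compared genes were. Of the 3, 1 was higher and 2 were lower in KO, where 15.2% of all compared genes were higher and 12.2% lower. At least 1.5-fold, 3 were higher and 12 lower in KO EBs, where 24.6% of all compared genes were higher, 25.1% lower and so 49.7% apart. Genes below 0 on the log2 scale were 25 of 38 in ESCs and 27 of 38 in EBs, where 50.3% and 53.5% of all compared genes were. The median log2 fold over the 38 genes was -0.11 in ESCs and -0.21 in EBs, against 0.00 and -0.07 over all compared genes. With libraries scaled to the same total, which shifts all genes up by 0.125 in ESCs and 0.117 in EBs, the ESC median became 0.0177 and the EB median stayed below 0 at -0.09.

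The 95% exact conditional binomial interval of the ratio of reads, given in brackets from here on, lay wholly above 1 for 5 genes and wholly below 1 for 17 in ESCs, where it did so for 36.1% and 36.9% of all compared genes. In EBs it lay above 1 for 5 and below 1 for 18, where it did so for 32.8% and 38.6% of all compared genes. These intervals cover counting error only, and not the spread between cultures, which 1 library per group does not give.

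Of the CCR4-NOT complex 6 of 10 members were compared, and 5 stood lower in KO than in WT EBs under each of the 3 scalings tried. In the deposited scaling 53.5% of all compared genes stood lower. The deadenylase Cnot6 (chr11:49671497-49713401) had normalised counts of 237 (WT) and 174 (KO) in ESCs, and 207 (WT) and 92.5 (KO) in EBs. It was the lowest of the 38 compared genes between KO and WT EBs, 2.24-fold lower (1.64 to 3.08). In ESCs it was 1.36-fold lower in KO (1.16 to 1.60). Cnot3, a core subunit that pairs with Cnot2, had 1180.0, 819, 1141 and 597, given here and below for WT and KO ESCs and then WT and KO EBs. It stood 1.44-fold lower in KO ESCs (1.34 to 1.55) and 1.91-fold lower in KO EBs (1.69 to 2.16). Cnot10, which binds the N-terminal part of the scaffold, had 2184, 1481, 1975 and 1114, so that both KO libraries lay below both WT libraries, as they did for Cnot3 and Cnot6. Its differences were 1.47-fold lower in ESCs (1.40 to 1.55) and 1.77-fold lower in EBs (1.62 to 1.94).

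The rest of the complex differed less. Cnot8, the other compared nuclease, had 548, 707, 762 and 694, and the WT ESC library was the low one. It was 1.29-fold higher in KO than in WT ESCs (1.18 to 1.42), and in EBs the interval of the ratio, 0.800 to 1.04, held 1. Cnot11, the partner of Cnot10, had 1219, 1220.5, 1146 and 1037, without the difference seen for Cnot10. Cnot2 had 144, 142, 122 and 143, all on the entry with the 2 short stretches described above.

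The 4 proteins that bring or attach CCR4-NOT to mRNAs were split in ESCs. In the deposited scaling all 4 lay above 0 on the log2 scale in KO against WT EBs. Of all compared genes 53.5% lay below 0 there. Scaling to the same total or by TMM factors shifts all genes up in this comparison, by 0.117 and 0.0179. Neither could therefore change the direction of these genes. The EB interval of the ratio held 1 for Tob1 (0.909 to 1.22), Zfp36l1 (0.997 to 1.33) and Btg1 (0.874 to 1.29), and lay above 1 for Btg2. Tob1 (chr11:94209842-94215495), an antiproliferative adaptor of the deadenylases, had 606 (WT) and 1104 (KO) in ESCs, and 552 (WT) and 581 (KO) in EBs. The KO ESC library stood alone, 1.82-fold above WT ESCs (1.68 to 1.98), the highest ratio of the 38 compared genes in ESCs. Zfp36l1, which binds AU-rich elements in 3' untranslated regions, had 731, 453, 536 and 618, with KO ESCs the lowest library at 1.61-fold below WT (1.47 to 1.77). Btg2, an adaptor of the same family as Tob1, had 518, 537, 636 and 1021, high in KO EBs only. That was 1.61-fold above WT EBs (1.42 to 1.82). Its relative Btg1 had 286, 265, 310 and 330, and both KO over WT intervals held 1.

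Of the other deadenylases, Parn stood apart in EBs and Pan3 stayed within its counting error. Parn (chr16:13537964-13668198), a nuclease that trims poly(A) tails mainly of non-coding RNAs, had 967 (WT) and 905 (KO) in ESCs, and 1351 (WT) and 616 (KO) in EBs. The 2 ESC libraries lay between the 2 EB libraries. Parn was 2.19-fold lower in KO than in WT EBs (1.95 to 2.47), and in ESCs the fold, 1.07 lower, had an interval that held 1 (0.992 to 1.15). Pan3, the adaptor subunit of PAN2-PAN3, had 392, 366, 352 and 321, and its KO over WT ratio was 0.911 in EBs (0.752 to 1.10).

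All 7 compared decapping genes lay below 0 in KO against WT EBs in the deposited scaling, where 53.5% of all compared genes did. That held for 5 of 7 with libraries scaled to the same total and 6 of 7 with TMM factors. Dcp1a, the main cofactor of Dcp2, had 579, 604, 843 and 481, and was 1.75-fold lower in KO EBs (1.53 to 2.02). Patl1, a bridge between the LSM ring and the decapping enzyme, had 692, 539, 792 and 416, and was 1.90-fold lower in KO EBs (1.64 to 2.21). For both genes WT EBs were the highest library and KO EBs the lowest. Dcp1b, the second Dcp1 protein, had 95.7, 81.6, 132 and 131, with no difference between the EB libraries beyond counting error (ratio 0.992, 0.728 to 1.35). The scaffolds Edc3 and Edc4 had 807, 845, 817 and 799, and 2171, 1720.3, 2071 and 1724. Edc3 was the most even of the 7 genes. Pnrc2, an adaptor between Upf1 and decapping, had 194, 142, 111 and 82.1, 1.37-fold lower in KO ESCs (1.14 to 1.63).

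The LSM1-7 ring, which binds deadenylated 3' ends, had 3 compared subunits of 7. They all lay above 0 in KO against WT EBs in the deposited scaling. Of all compared genes 53.5% lay below 0 there. The other scalings shift all genes up in this comparison, by 0.117 and 0.0179, so they could not change this direction. In ESCs, where 50.3% of all compared genes lay below 0, the 3 lay below 0 under each scaling. With libraries scaled to the same total, though, their median log2 fold in ESCs was -0.0178. The ESC interval of Lsm1, 0.768 to 1.08, held 1. Lsm4 had 1312, 1187, 1011 and 1470.3, and was 1.45-fold higher in KO than in WT EBs (1.32 to 1.61). Lsm3 had 606, 538, 463 and 482, and Lsm1, the subunit that makes the ring cytoplasmic, 194, 176, 149.6 and 163. Both intervals in EBs held 1.

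Both 5' to 3' exonucleases were lower in KO EBs, and they differed from each other in ESCs. Xrn1 (chr9:95954750-96057806), the cytoplasmic enzyme, had 901 (WT) and 1140.0 (KO) in ESCs, and 1175 (WT) and 649 (KO) in EBs. It was 1.27-fold higher in KO ESCs (1.18 to 1.36) and 1.81-fold lower in KO EBs (1.61 to 2.04). Xrn2, the nuclear enzyme that also acts in transcription termination, had 3326, 2767, 2497 and 1421. It was 1.20-fold lower in KO ESCs (1.15 to 1.25) and 1.76-fold lower in KO EBs (1.62 to 1.91).

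The exosome subunits lay on both sides of 0. Exosc4 (chr15:76327397-76330670), a subunit of the ring, had 948 (WT) and 1378 (KO) in ESCs, and 806 (WT) and 1845 (KO) in EBs. Both KO libraries lay above both WT libraries. The gene was 1.45-fold higher in KO ESCs (1.36 to 1.56) and 2.29-fold higher in KO EBs (2.06 to 2.54), the highest ratio of the 38 compared genes in EBs. Exosc3, a cap subunit that binds RNA, had 587, 604, 637 and 1181, and stood apart in KO EBs alone, 1.85-fold above WT EBs (1.64 to 2.09). Exosc5, another ring subunit, had 1409, 923, 1245 and 1537, with KO ESCs low, 1.53-fold below WT (1.43 to 1.63). In EBs the same gene was 1.23-fold higher in KO (1.12 to 1.36).

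The catalytic subunits lay on the other side. Dis3, the processive nuclease, had 1689, 1241, 1329 and 666. It was 1.36-fold lower in KO ESCs (1.28 to 1.44) and 2.00-fold lower in KO EBs (1.78 to 2.24), just short of the 2-fold line at a log2 fold of -0.997. Exosc10, the nuclear nuclease, had 1992, 1286, 1591 and 957, 1.55-fold lower in KO ESCs (1.46 to 1.64) and 1.66-fold lower in KO EBs (1.51 to 1.84). For both nucleases each KO library lay below the WT library of the same culture. Exosc9, of the ring, had 1402, 916, 1072 and 727, 1.53-fold lower in KO ESCs (1.43 to 1.64) and 1.48-fold lower in KO EBs (1.31 to 1.66). Exosc7, also of the ring, had 959, 1028, 1211 and 872, 1.39-fold lower in KO EBs (1.25 to 1.55). Exosc2, a cap subunit, had 993, 993, 754 and 752, and both KO over WT intervals held 1.

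The SKI complex, which feeds cytoplasmic mRNAs into the exosome, was uneven as well. Its helicase Skiv2l (chr17:34839226-34850204) had 801 (WT) and 409.7 (KO) in ESCs, and 433 (WT) and 382 (KO) in EBs, with WT ESCs alone at the high level. That was the lowest KO over WT ratio of the 38 compared genes in ESCs, 1.95-fold lower (1.78 to 2.15), just inside the 2-fold line. Its scaffold Ttc37 had 800.1, 788, 817 and 418, with KO EBs alone at the low level, 1.95-fold below WT EBs (1.69 to 2.27).

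Of nonsense-mediated decay 4 of 5 members were compared, all 4 below 0 in KO against WT EBs under each of the 3 scalings. In the deposited scaling 53.5% of all compared genes lay below 0, and a change of scaling shifts all genes of a comparison together. Smg5 was the closest of the 4 to 0, at -0.125 as deposited, and scaling to the same total shifts all genes up by 0.117. Upf2, the bridge to the exon junction complex, had 945, 903, 1170.5 and 670.2, 1.75-fold lower in KO EBs (1.55 to 1.97). Smg1, the kinase that phosphorylates Upf1, had 1792, 1999.9, 1469.7 and 1225, 1.20-fold lower in KO EBs (1.09 to 1.32). Smg6, the endonuclease, had 872, 878, 798 and 675, and the adaptor Smg5 1051, 872, 877 and 805. Upf2 was the single gene of the set beyond 1.5-fold.

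**Figure D3:**
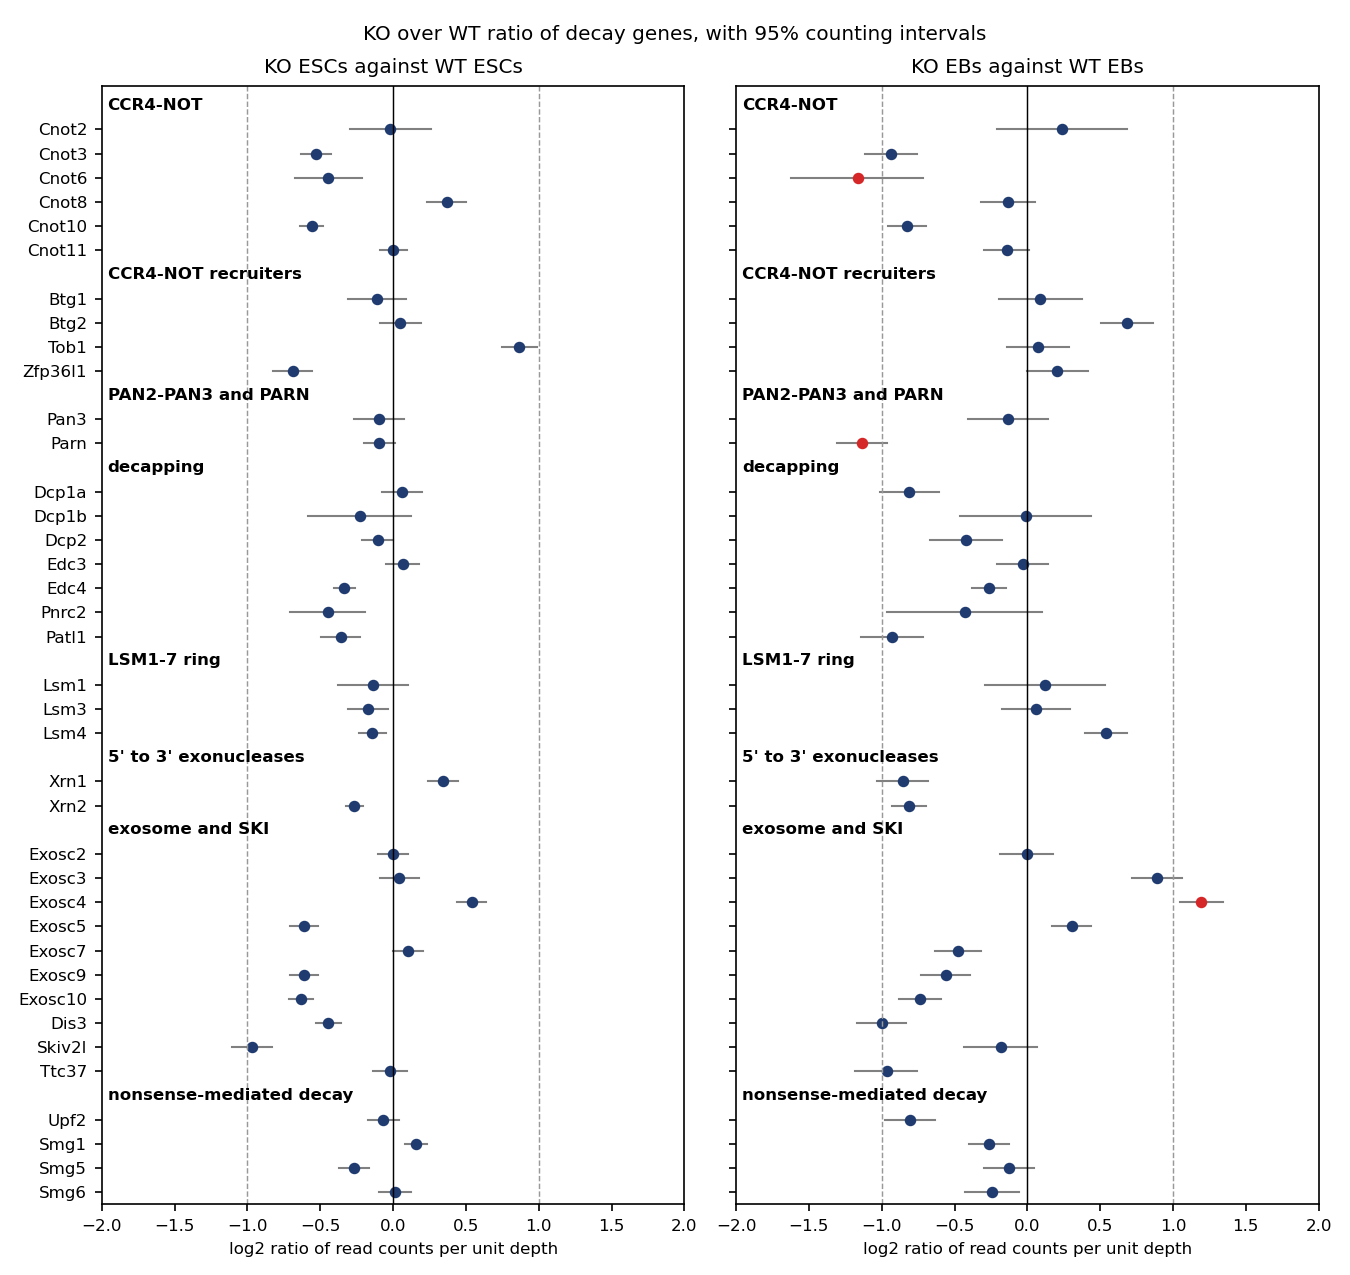
The log2 ratio of KO over WT reads per unit depth for the 38 compared decay genes, in ESCs and in EBs, with bars for the 95% exact conditional binomial interval, counting error only, and dashed lines and red points for 2-fold. In EBs the genes spread from Cnot6 and Parn at the low end to Exosc4 at the high end, and in ESCs from Skiv2l to Tob1.

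The KO over WT folds in EBs went with the base composition of the coding sequence, among decay genes and among all genes, and among decay genes with its length too. Across the 9597 compared genes with a coding model, the log2 fold of KO over WT EBs and the coding GC content had a Spearman correlation of 0.505, and across the 38 decay genes 0.57. Between KO and WT ESCs these were 0.295 and -0.0719, and between WT EBs and WT ESCs -0.0163 and 0.0546. The correlations are across genes of the same libraries and are given as a description, since genes are not independent replicates. The same folds had a Spearman correlation with coding length of -0.626 across the 38 decay genes and -0.14 across all 9597. With genes split into 20 bins of equal number by coding GC, the median log2 fold between KO and WT EBs ran from -0.96 in the lowest bin to 0.89 in the highest.

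Set against the median of their own bin, the extreme genes changed places. Exosc4 (coding GC 63.3%) stood at 0.30 from its bin on the log2 scale, Cnot6 (42.2%) at -0.19 and Xrn1 (42.9%) at -0.10. Parn (46.5%) stood at -0.66, Exosc3 (54.4%) at 0.82 and Dis3 (45.9%) at -0.41. Of the nonsense-mediated decay genes, Smg1 stood at 0.32, Smg5 at -0.19, and Upf2 and Smg6 each at -0.04. Of the genes that bring CCR4-NOT to mRNAs, Zfp36l1 stood at -0.41, and Btg1, Btg2 and Tob1 at 0.10, 0.32 and 0.15. Cnot3, with a coding GC of 56.6%, stood at -1.06, the 1 gene past 2-fold by this measure, where 20.3% of all 9597 genes were. By this measure 7 decay genes were at least 1.5-fold apart between KO and WT EBs, 5 lower and 2 higher, against 15 before, where 17.6% of all 9597 genes were lower and 22.6% higher, and one of the 2 higher was Cnot2 with its few single-entry bases. In ESCs the same measure put Skiv2l at -1.20 and Zfp36l1 at -1.06, the 2 genes past 2-fold, where 13.6% of all 9597 genes were. What part base composition or length has in these differences was not tested.

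**Figure D4:**
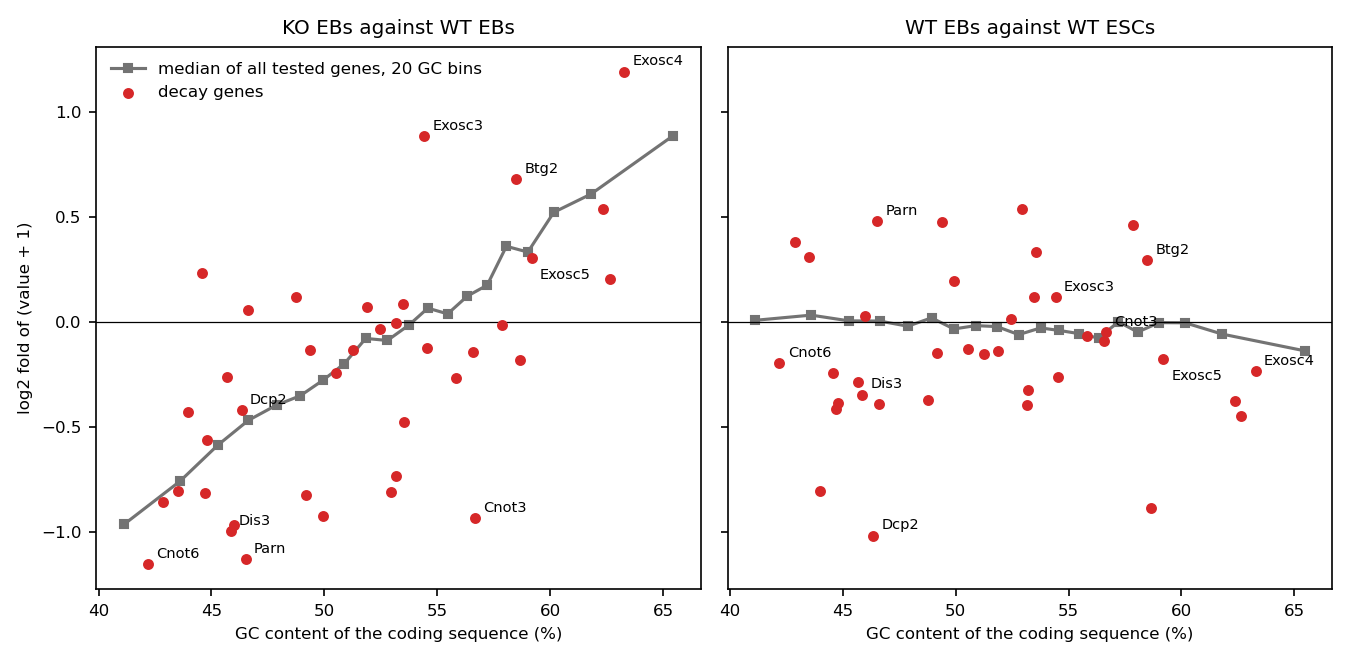
The log2 fold of each decay gene (red points) against the GC content of its coding sequence, for KO against WT EBs on the left and WT EBs against WT ESCs on the right, with the median of all compared genes in 20 GC bins as the grey line. The grey line climbs from -0.96 to 0.89 on the left and stays between -0.14 and 0.03 on the right.

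Cell-type markers differed between the libraries compared. The visceral endoderm marker list, 10 of 10 genes with a read, summed to a normalised count of 46380.4 in WT EBs and 1687 in KO EBs, against 199 and 187 in WT and KO ESCs. The fibroblast and matrix list, 6 of 8 with a read, summed to 1164 in WT EBs and 7723 in KO EBs, and to 400.1 and 1988 in ESCs, and 2 of its markers are listed at 0. These, Pdgfrb and Postn, have 0.09% and 6.56% of their coding bases in 1 entry only, and no level is read from them. In WT and KO EBs the neural list summed to 704 and 1337, the blood list to 54.5 and 106, and the heart and muscle list to 148 and 109. Of their genes 2, 4 and 2 are listed at 0. Naive ESC markers (8 of 9 with a read) summed to 27604 in WT ESCs and 20687 in KO ESCs. In EBs they summed to 15185 (WT) and 25242.5 (KO). The sum of KO EBs stood above that of KO ESCs, and the sum of WT EBs below that of WT ESCs. Single markers differed in direction: from KO ESCs to KO EBs Tfcp2l1 fell from 2741 to 1620 and Klf4 from 1705 to 1088. Nanog, Zfp42, Klf2, Pou5f1, Sox2 and Esrrb, the last on few reads, rose. The part of these marker differences in the decay genes was not tested.

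From WT ESCs to WT EBs few decay genes were far apart. Between WT EBs and WT ESCs 1 of 38 genes was at least 2-fold apart, where 19.2% of all compared genes were (11.0% higher and 8.25% lower in EBs). At least 1.5-fold, 0 were higher and 3 lower, where 18.2% of all compared genes were higher, 15.6% lower and so 33.8% apart. In all, 25 of 38 lay below 0 in WT EBs, where 51.8% of all compared genes did. Dcp2 (chr18:44380500-44424969), the decapping enzyme, had 976 (WT) and 906 (KO) in ESCs, and 482 (WT) and 359.7 (KO) in EBs. It was 2.03-fold lower in WT EBs (1.79 to 2.30), and relative to its GC bin the log2 fold was -1.02, as without that step. The other 2 were Skiv2l, 1.85-fold lower (1.62 to 2.12), and Pnrc2, 1.75-fold lower (1.34 to 2.31). The highest gene was Dcp1a, 1.46-fold higher in WT EBs (1.30 to 1.63), so the decapping enzyme and its main cofactor lay at opposite ends.

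In KO cells 13 of the genes, against 3 in WT cells, were at least 1.5-fold apart between the cultures, a difference that was not tested. Between KO EBs and KO ESCs 1 of 38 was at least 2-fold apart, where 16.0% of all compared genes were (9.31% higher and 6.65% lower in EBs), and again it was Dcp2, 2.52-fold lower (2.20 to 2.90). At least 1.5-fold, 4 were higher and 9 lower, where 18.5% of all compared genes were higher, 19.0% lower and so 37.4% apart. In all, 28 of 38 lay below 0 in KO EBs, where 55.0% of all compared genes did. The 4 higher genes were Exosc3, 1.95-fold (1.78 to 2.14), Btg2, 1.90-fold (1.72 to 2.10), Exosc5, 1.67-fold (1.54 to 1.80), and Dcp1b, 1.61-fold (1.22 to 2.11). The lower genes beside Dcp2 were Xrn2, Tob1, Ttc37, Cnot6, Dis3, Xrn1, Pnrc2 and Smg1, between 1.63-fold and 1.95-fold. This comparison shares its KO libraries with the genotype comparisons above, and its folds follow coding GC too (Spearman correlation 0.694 across the 38 genes, 0.399 across all 9597).

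**Figure D5:**
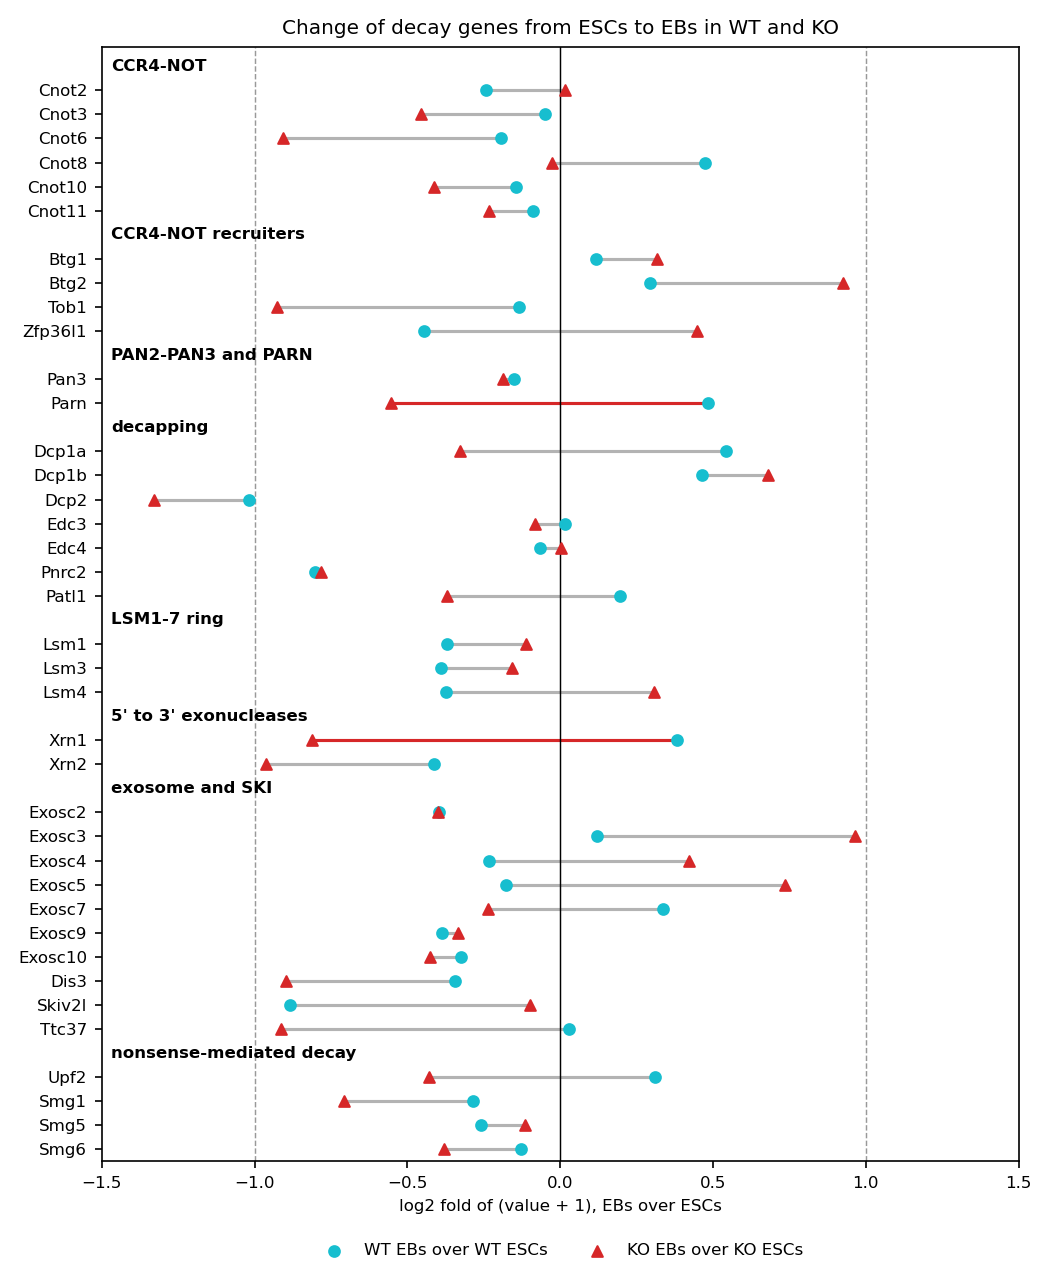
The log2 fold from ESCs to EBs of each compared decay gene, with a circle for WT, a triangle for KO cells, and a red line where they differ by 1 or more. Dcp2 is the lowest gene in both genotypes (-1.02 and -1.33), and the points of Xrn1 (0.38 and -0.81) and Parn (0.48 and -0.55) lie on opposite sides of 0.

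The difference between the 2 genotypes in this change reached 1 or more on the log2 scale for 2 of 38 genes, Xrn1 and Parn, where 23.9% of all compared genes reached it. Both were lower in KO, where 12.5% of all compared genes were lower by as much and 11.4% higher. Xrn1 was at 0.38 in WT and -0.81 in KO, and Parn at 0.48 and -0.55. At the other end stood Exosc5 (-0.18 in WT, 0.73 in KO) and Zfp36l1 (-0.45 in WT, 0.45 in KO), with differences of 0.91 and 0.89. Relative to the median of their GC bins, the differences of Xrn1 and Parn were -0.685 and -0.706, short of 1 in size. The difference had a Spearman correlation with coding GC of 0.599 across the 38 genes and 0.319 across all 9597. What part base composition has in it was not tested. With 1 library per group these differences were not tested.

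A wider list of 76 decay genes outside the 51, of which 52 were compared, was counted in the same way. Between KO and WT ESCs 1 was at least 2-fold higher and 3 lower, 1.92% and 5.77% of the 52, where 10.6% and 4.42% of all compared genes were. Noct, a deadenylase-like enzyme under circadian control, had 759 (WT) and 1765 (KO) in ESCs, and 837 (WT) and 1812 (KO) in EBs, and was the single gene of the list at least 2-fold higher in KO in both cultures, 2.33-fold in ESCs (2.16 to 2.50) and 2.17-fold in EBs (1.95 to 2.40). The 3 lower genes in ESCs were Nanos3, 4.71-fold (2.48 to 9.57, on 42 and 13 reads), Zcchc7, a partner of the nuclear exosome, 2.89-fold (2.52 to 3.32), and Tnrc6c, which links microRNA complexes to CCR4-NOT, 2.23-fold (2.06 to 2.43). Between KO and WT EBs 5 were at least 2-fold higher and 5 lower, 9.62% each, where 15.2% and 12.2% of all compared genes were. The highest were Nanos1, 3.10-fold (1.77 to 5.69, on 17 and 55 reads), the endonuclease Zc3h12a, 2.36-fold (1.59 to 3.55), and the exosome ring subunit Exosc6, 2.20-fold (1.90 to 2.55). The lowest were Mtrex, the nuclear exosome helicase, 2.81-fold (2.59 to 3.05), Nanos3, 2.61-fold (1.30 to 5.60), and Zfc3h1, a scaffold that joins Mtrex, 2.24-fold (1.93 to 2.61).

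Mtrex had 2856, 2031, 3384 and 1203, low in KO EBs like Dis3 and Exosc10, and Exosc6 had 497, 687, 407 and 894, high there like Exosc4 and Exosc3. Their coding GC was 44.0% (Mtrex) and 75.1% (Exosc6). The median log2 fold of KO over WT EBs in the GC bins of such genes was -0.76 and 0.89. Nanos1, with a coding GC of 71.9%, falls in the same bin as Exosc6. What part base composition has in these folds was not tested. Ythdf2, the reader that ties m6A to CCR4-NOT, had 1628 (WT) and 2955 (KO) in ESCs, and 1453 (WT) and 2121 (KO) in EBs, above WT in both cultures but under 2-fold. From WT ESCs to WT EBs 2 genes of the list were at least 2-fold higher, Zfp36, 3.34-fold (2.69 to 4.15), and Zfp36l2, 2.14-fold (1.90 to 2.42), and 1 lower, Nudt3, 2.22-fold (1.79 to 2.78), where 11.0% of all compared genes were higher and 8.25% lower. From KO ESCs to KO EBs 1 was higher, Nanos3, 2.58-fold (1.08 to 6.14), and 0 lower, where 9.31% and 6.65% of all compared genes were.

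A count test over all 4 libraries treats the genotype difference seen in both cultures as the effect and its disagreement between cultures as the error. By edgeR's quasi-likelihood test with genotype and culture as terms, 0 of 38 decay genes were called for genotype at an adjusted p of 0.05, as were 0 of all 9670 genes, and 5 had an unadjusted p under 0.05, where 16.1% of all genes did. By DESeq2 1 of the 5, Exosc4, had an unadjusted p under 0.05, where 13.8% of all genes did. Exosc4 had the smallest Benjamini-Hochberg adjusted p by edgeR, 0.235, and DESeq2 gave 0.184. The other 4 were Cnot3, Cnot10, Exosc10 and Dis3, in each of which KO lay below WT in both cultures, with unadjusted p between 0.052 and 0.0571 by DESeq2. For culture edgeR called 0 of 38 as well, where it called 0.259% of all genes, and 2 had an unadjusted p under 0.05, where 11.8% of all genes did. By DESeq2 1 of the 38 did, Dcp2, where 10.7% of all genes did. Dcp2 had an adjusted p of 0.155 by edgeR and 0.0621 by DESeq2, which also called 0 decay genes in either term, where it called 3.33% of all genes for genotype and 3.88% for culture.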

How the data were processed

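Ribosome footprints of 4 mouse libraries, 1 per group, were used as the authors deposited them, in 1 table of normalised signal per RefSeq coding sequence. The submitters' processing notes name build mm10, TopHat2 2.0.10 with Bowtie, HTSeq 0.6.0, DESeq and CASAVA 1.8.2; their settings, strand and annotation version are not given in the sources used. Every value was a whole multiple of the signal of 1 read, within a tolerance of 0.01 for 100% of values, so whole reads were recovered from the deposited signal. Reads on genes numbered 4075850 to 11455539 per library, and reads that name no gene stayed out of sizes and tests; in the 4 libraries 48.4% to 55.7% of reads had no unique place and 8.62% to 10.5% were ambiguous. Of 27442 entries, 27079 matched a symbol in RefSeq (GRCm38.p6), and entries were summed per symbol.

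Log2 folds used a pseudocount of 1 and called a gene at 2-fold; ratios of reads have 95% exact conditional (Clopper-Pearson) intervals. Genes needed a mean of 25 over the 4 libraries. All genes were fitted with edgeR 4.0.16 and DESeq2 1.42.0 in R 4.3.3 on the recovered reads, with 1 residual degree of freedom. The design allowed this count test only if whole reads could be recovered. Alternatives were pseudocount, filter, scaling, TMM factors and the highest entry per gene; 28-base windows, GC bins and the 1.5-fold count were added after seeing the data. Scripts were tested on simulated data. Members and lists were chosen with earlier results of these data known. Named with values in every library were members at least 2-fold apart or with a differing EB change, the main enzymes, the extremes of each complex and, among further decay genes, up to 3 highest and 3 lowest per comparison. Ythdf2 was named after its values were seen.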

Additional observations from a re-analysis of the deposited data

Results flagged for a closer look

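Xrn1 and Parn moved in opposite directions from ESCs to EBs in the 2 genotypes. The EB change of Xrn1 in KO minus that in WT was -1.19 on the log2 scale, and that of Parn was -1.04. Relative to the median of their GC bins these differences were -0.685 and -0.706, short of 1 in size. Both genes stood higher in WT EBs than in WT ESCs and lower in KO EBs than in KO ESCs. With 1 library per group the difference was not tested, and 12.5% of all compared genes had one at least as low as -1.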

How the results depend on the processing

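No paired analysis was possible because each group is 1 library and the labels give no replicate numbers. Over 13 results and 89 alternatives, 77 values stayed, 11 moved and 1 reversed. Some alternatives could not differ for the decay genes. All 38 compared genes also passed a mean of at least 100, and all reads of Cnot2, the 1 compared gene with several entries, fell on 1 entry. The values that stayed include the median between KO and WT EBs, -0.21 in the main setting. It was -0.094 with libraries scaled to the same total and -0.058 relative to the GC bin. Without a filter beyond 1 read, 42 decay genes were compared, and those at least 2-fold apart became 5 between KO and WT EBs, 3 between WT EBs and WT ESCs and 2 between KO EBs and KO ESCs. Genes with a differing EB change became 4. These moves come from the 4 added genes Cnot6l, Lsm2, Lsm5 and Lsm7, which have few reads. With libraries scaled to the same total the median between KO and WT ESCs reversed to 0.0177, since that scaling shifts all genes. Relative to the median of the same GC bin, chosen after seeing the data, the counts became 2 between KO and WT ESCs, 1 between KO and WT EBs and 2 between KO EBs and KO ESCs. The count test called 0 genes for genotype by edgeR, where 1556 had an unadjusted p under 0.05. It called 322 with DESeq2 and 277 without the filter. For culture it called 25 by edgeR, 375 with DESeq2 and 338 without the filter. The cause of these 4 differences was not tested. Counting error was wider between the EB libraries than between the ESC libraries. The median half-width of the interval was 0.179 on the log2 scale between KO and WT EBs and 0.109 between KO and WT ESCs. Genes with few reads had wide intervals, as Dcp1b did between KO and WT EBs (0.728 to 1.35, on 85 and 88 reads).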
